A study of Sus scrofa with 14 samples.

Results

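Expression of 8 genes of cholesterol synthesis and its control was measured in porcine adipose tissues (ATs), among the 21280 protein-coding genes quantified in each RNA-seq library. The genes were taken from a list of names and matched by the pig symbol of their Ensembl identifier, and all 8 were found. They were HMGCS1 (ENSSSCG00000016872), IDI1 (ENSSSCG00000029066), FDFT1 (ENSSSCG00000026044), SQLE (ENSSSCG00000005970), LSS (ENSSSCG00000021418), DHCR7 (ENSSSCG00000021181), SREBF2 (ENSSSCG00000026092) and INSIG1 (ENSSSCG00000016420). The tissues were the greater omentum (GOM), a visceral depot, and the upper layer of backfat (ULB), a subcutaneous depot, from wild boars and from Bama pigs, a small Chinese breed that is prone to fatness. All animals were healthy females of 2 years on the same feeding regime, killed after fasting, and no treatment was given. Per the study's methods the wild boars were not born in captivity, and the Bama pig line was not a long-inbred one. RNA-seq and Hi-C each contributed 7 libraries. The wild boars gave 2 from each depot, and the Bama pigs gave 2 from GOM and 1 (replicate 2) from ULB. The study used 2 animals per breed and took both depots from them, so libraries of the 2 depots share animals and each breed is represented by 2 animals.

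Cholesterol is built from acetyl-CoA through the mevalonate pathway. HMGCS1 makes HMG-CoA, IDI1 converts isopentenyl diphosphate to its isomer, FDFT1 joins farnesyl units into squalene, SQLE oxidizes squalene, LSS closes the ring to lanosterol, and DHCR7 reduces the last double bond in one branch of the route to cholesterol. SREBF2 encodes SREBP2, the transcription factor that activates these genes, and its own gene, when membranes are poor in sterol. INSIG1 retains the complex of SCAP and SREBP in the endoplasmic reticulum when sterol is plentiful, and is itself an SREBP target. Adipose tissue makes little cholesterol compared with the liver but stores a large pool of it in lipid droplets, taken up largely from lipoproteins.

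The promoters of HMGCS1 and SREBF2 are shown because they hold a match to the sterol regulatory element bound by SREBP2. Each is the 250 bases upstream of the RefSeq gene start on Sscrofa11.1, read 5′ to 3′ on the minus strand, with the match in capitals. They lie at chr16:27957262-27957511 and chr5:6784725-6784974.
HMGCS1: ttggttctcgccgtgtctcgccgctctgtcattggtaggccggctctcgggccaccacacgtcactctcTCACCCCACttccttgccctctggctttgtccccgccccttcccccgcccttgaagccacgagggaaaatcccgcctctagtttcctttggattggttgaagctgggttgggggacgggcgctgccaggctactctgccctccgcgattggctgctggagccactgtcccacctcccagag
SREBF2: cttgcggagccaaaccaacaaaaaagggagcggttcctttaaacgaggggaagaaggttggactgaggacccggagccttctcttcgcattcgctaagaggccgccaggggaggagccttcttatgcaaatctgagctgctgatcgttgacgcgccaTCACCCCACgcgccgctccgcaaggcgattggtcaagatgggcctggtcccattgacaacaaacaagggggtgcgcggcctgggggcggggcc
The motif searched was TCACNCCAC on both strands. Its first base lay 181 bases upstream of the start in HMGCS1 and 93 in SREBF2, both times on the strand of the gene. A match was found in 3 of the 7 members with a RefSeq promoter (HMGCS1, SQLE and SREBF2) and in 0.771% of 20612 promoters of this length. In the promoters of DHCR7, FDFT1, INSIG1 and LSS these letters are not in this window, and IDI1 was not matched. The CCAAT box (CCAAT, both strands), bound by NF-Y, was found in 7 of the 7 members and in 31.952% of all promoters, and the GC box (GGGCGG, both strands), bound by Sp1, in 7 of the 7 and in 44.474%. The sterol element matches shared 0 bases with a match of either box. Among 14 promoters of other cholesterol synthesis enzymes the sterol element was found in 0, the CCAAT box in 12 and the GC box in 12.

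Library totals ranged from 10833207 to 18627105 estimated counts. The 6 adipocyte markers (ADIPOQ, PLIN1, LEP, FABP4, CIDEC and LPL) were detected in every library, with a summed level of 9576 to 18200 TPM (transcript abundance scaled by transcript length and by library). The 6 macrophage markers summed to 536.4 to 1263 TPM in the 4 GOM libraries and to 389.1 to 584.6 TPM in the 3 ULB libraries, which overlapped. Mesothelial markers (2 of 6 in the table) summed to 20.9 to 88.6 TPM in GOM and to 0.456 to 6.46 TPM in ULB. Skeletal muscle markers (4 of 5 in the table) summed to 360.4 TPM in wild boar ULB replicate 1 and to 2.678 to 9.53 TPM elsewhere. The 8 liver transcripts summed to 256.5 to 1338 TPM in Bama pig and to 170.5 to 217.4 TPM in wild boar. Of these, 7 were higher in all 3 Bama pig libraries than in all 4 wild boar libraries in TMM CPM. Of the 8, 4 were called lower in wild boar, ALB and FGB among them, and the median log2 fold change of the 8 was -4.02. The part of these other cells in the values below was not tested. Tissue was sequenced in bulk, so fewer cells of a type and less RNA per cell cannot be told apart.

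On the TPM scale, which is per transcript length, the mean over the 7 libraries was highest for FDFT1 (63.3 ± 20.6 TPM, SD, n = 7) and IDI1 (62.1 ± 32.6). They were followed by LSS (34.7 ± 14.2), HMGCS1 (24.8 ± 8.65), SREBF2 (15.4 ± 5.73), INSIG1 (14.7 ± 3.71), SQLE (7.43 ± 4.88) and DHCR7 (5.12 ± 5.03). Neighbours in this order changed places between libraries, except that IDI1 exceeded LSS in 7 of 7 libraries. FDFT1 exceeded IDI1 in 4 of 7 libraries, LSS exceeded HMGCS1 in 5, HMGCS1 exceeded SREBF2 in 5, SREBF2 exceeded INSIG1 in 3, INSIG1 exceeded SQLE in 6 and SQLE exceeded DHCR7 in 5.

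**Figure D1:**
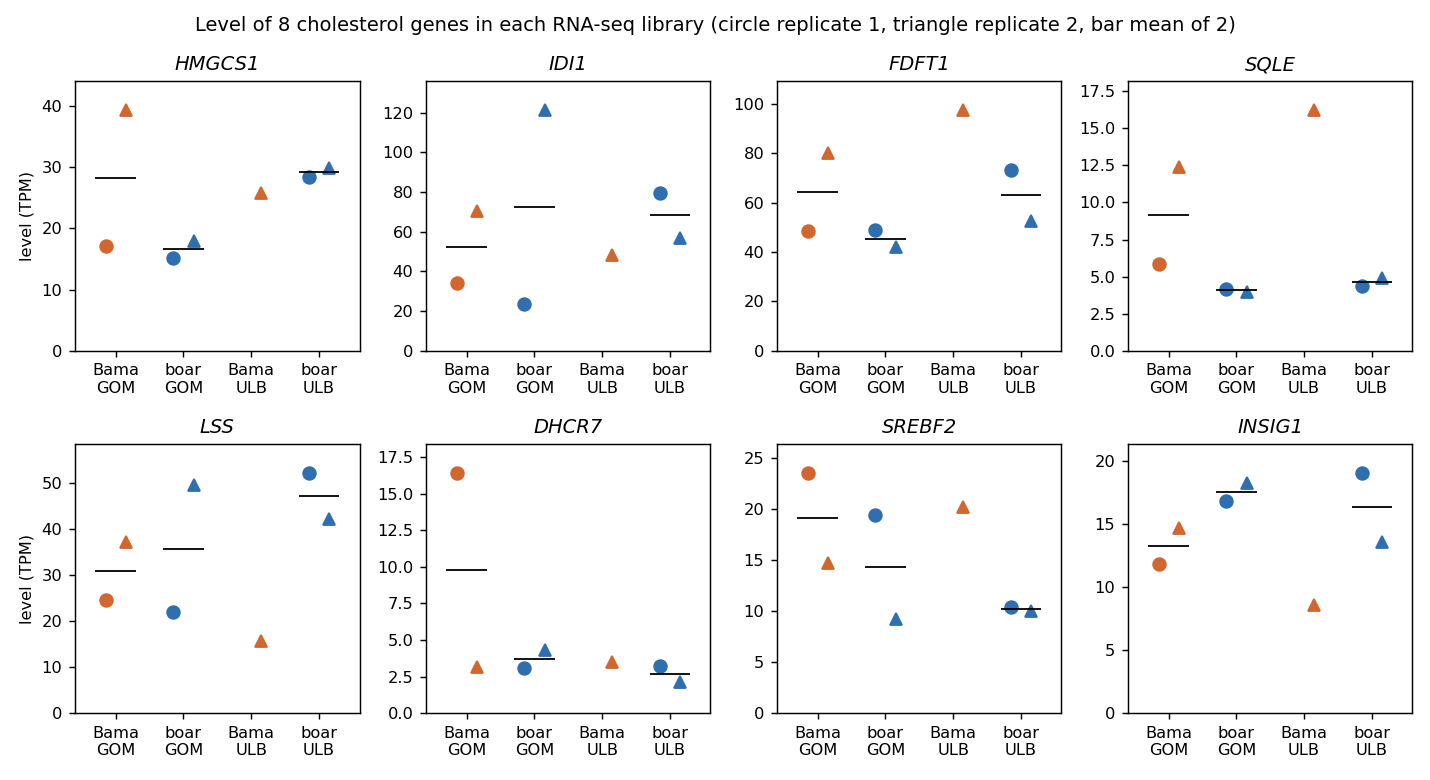
Level in TPM (vertical axes, from 0) of each of the 8 genes in the 7 RNA-seq libraries, by breed and depot (horizontal axes), with a circle for replicate 1, a triangle for replicate 2 and a bar at the mean of 2. SQLE in Bama pig lies at 5.88 to 16.2 TPM and in wild boar at 3.98 to 4.92 TPM, and DHCR7 stands at 16.4 TPM in 1 Bama pig GOM library against 2.15 to 4.36 TPM in the others.

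Early in the route, HMGCS1 had 17.1 and 39.4 TPM in Bama pig GOM, 25.8 TPM in Bama pig ULB, 15.2 and 18.0 TPM in wild boar GOM, and 28.4 and 29.9 TPM in wild boar ULB. Both wild boar GOM libraries were below both wild boar ULB libraries, but the 2 Bama pig GOM libraries were far apart, and replicate 2 there was the highest of all. IDI1 had 33.9 and 70.5 TPM in Bama pig GOM, 48.4 TPM in Bama pig ULB, 23.7 and 121 TPM in wild boar GOM, and 79.4 and 57.1 TPM in wild boar ULB. The lowest and the highest of the 7 values were thus the 2 replicates of wild boar GOM, 5.12-fold apart, and every group lay inside that span.

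At the squalene steps, FDFT1 had 48.6 and 80.0 TPM in Bama pig GOM, 97.6 TPM in Bama pig ULB, 48.8 and 41.9 TPM in wild boar GOM, and 73.4 and 52.6 TPM in wild boar ULB. The Bama pig ULB library was the highest and the depots overlapped. SQLE, which acts next, had 5.88 and 12.4 TPM in Bama pig GOM, 16.2 TPM in Bama pig ULB, 4.18 and 3.985 TPM in wild boar GOM, and 4.395 and 4.92 TPM in wild boar ULB. All 3 Bama pig libraries were above all 4 wild boar libraries on this scale, and the wild boar values lay close together. LSS had 24.5 and 37.2 TPM in Bama pig GOM, 15.7 TPM in Bama pig ULB, 22.0 and 49.4 TPM in wild boar GOM, and 52.1 and 42.1 TPM in wild boar ULB. Its lowest value was in Bama pig ULB, the library with the highest FDFT1 and SQLE, and the groups overlapped.

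At the end of the route, DHCR7 had 16.4 and 3.14 TPM in Bama pig GOM, 3.48 TPM in Bama pig ULB, 3.07 and 4.36 TPM in wild boar GOM, and 3.25 and 2.15 TPM in wild boar ULB. Bama pig GOM replicate 1 stood apart with 420 estimated counts, against 53 to 137 in the other 6 libraries. The same library had the highest SREBF2, the second lowest HMGCS1, IDI1, FDFT1 and INSIG1, and a macrophage marker sum of 1065 TPM against 536.4 TPM in its replicate. That sum was higher still, 1263 TPM, in wild boar GOM replicate 1, where DHCR7 had 3.07 TPM. The single markers differed. CD68 (87.65 TPM) and CSF1R (117.9 TPM) were highest in Bama pig GOM replicate 1, and C1QA and C1QB in wild boar GOM replicate 1. CD163 was highest in wild boar GOM replicate 2 and MRC1 in wild boar ULB replicate 2. A link of DHCR7 to macrophages was not tested.

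Of the regulators, SREBF2 had 23.5 and 14.7 TPM in Bama pig GOM, 20.2 TPM in Bama pig ULB, 19.4 and 9.25 TPM in wild boar GOM, and 10.4 and 10.1 TPM in wild boar ULB. Only wild boar GOM replicate 1 reached Bama pig levels among the wild boar libraries. INSIG1 had 11.8 and 14.7 TPM in Bama pig GOM, 8.61 TPM in Bama pig ULB, 16.8 and 18.2 TPM in wild boar GOM, and 19.1 and 13.6 TPM in wild boar ULB. Its range was the narrowest of the 8 genes (2.21-fold), with the Bama pig ULB library at the bottom.

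The depots were compared across all 7 libraries with breed in the model, using edgeR's quasi-likelihood test on the rounded estimated counts (trimmed mean of M values, TMM, two-sided, Benjamini-Hochberg adjustment over 17877 genes). Calls required an adjusted p under 0.05 together with a log2 fold change beyond 1 in either direction. None of the 8 genes was called, where 3.58% of all genes tested were. None had an unadjusted p below 0.05 either, against 19.9% of all genes, and DESeq2 also called 0 of the 8. The log2 fold changes of GOM against ULB were -0.46 for HMGCS1 (SE 0.32), -0.58 for FDFT1 (SE 0.30) and -0.51 for SQLE (SE 0.40). For DHCR7 the value was 0.82 (SE 0.53), for INSIG1 0.26 (SE 0.26), for SREBF2 0.16 (SE 0.33), for LSS 0.13 (SE 0.37) and for IDI1 0.10 (SE 0.52). The smallest adjusted p, from edgeR's test, was 0.309 (FDFT1). The median of the 8 log2 fold changes was 0.11, beside 0.02 over all genes tested, with 5 above 0 and 3 below.

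HMGCS1, FDFT1, DHCR7 and INSIG1 kept their sign in the depot comparison when each library was left out, and the other 4 did not. Without wild boar GOM replicate 2 the value was -0.88 for IDI1 and -0.24 for LSS, without wild boar GOM replicate 1 it was -0.18 for SREBF2, and without Bama pig ULB replicate 2 it was 0.02 for SQLE. A trend with the GC content of transcripts also moved with depot, mainly in wild boar. The deviation of the tenth of genes with the highest GC minus that of the tenth with the lowest was 0.68 and 0.40 on the log2 scale in wild boar GOM, and -0.38 and -0.35 in wild boar ULB. It was -0.10 and 0.06 in Bama pig GOM and -0.30 in Bama pig ULB. HMGCS1 transcripts hold 39.1% GC, SQLE 46.9%, FDFT1 51.5%, INSIG1 53.5%, SREBF2 62.5%, LSS 63.3% and DHCR7 64.4%. With an offset for GC content, LSS was at -0.26 and SREBF2 at -0.21, both with changed sign. IDI1 had no GC value. The offset is void as a check over all genes, since 71.3% of the genes tested had a GC value. The part of GC content in the depot differences was not tested.

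Between the breeds, again none of the 8 genes was called by edgeR or by DESeq2, where 0.42% of all 17877 genes were called by edgeR. At an unadjusted p below 0.05, 3 of the 8 were found (SQLE, LSS and INSIG1), or 37.5%, where 21.6% of all genes tested were. This count was 1 without Bama pig ULB replicate 2, 2 without wild boar GOM replicate 2 and 5 without wild boar GOM replicate 1, and 1 with limma on log2(TPM + 1). In SQLE the log2 fold change of wild boar against Bama pig was -1.14 (SE 0.40, adjusted p = 0.157 from edgeR's test), with 6.596 to 26.2 CPM after TMM scaling (TMM CPM) in Bama pig and 6.84 to 7.64 TMM CPM in wild boar. Bama pig ULB held the highest value and Bama pig GOM replicate 2 the next, and without the Bama pig ULB library the log2 fold change was -0.60. In LSS the log2 fold change was 1.10 (SE 0.38, adjusted p = 0.157 from edgeR's test), and the libraries overlapped at 62.3 to 110.6 TMM CPM in Bama pig and 87.9 to 232.5 TMM CPM in wild boar. In INSIG1 it was 0.94 (SE 0.27, adjusted p = 0.123 from edgeR's test). DESeq2 gave INSIG1 an adjusted p of 0.0407 at a log2 fold change of 0.93, under the fold threshold, and over the other alternatives its adjusted p lay between 0.0501 and 0.472.

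INSIG1 was the only one of the 8 genes in which the breeds did not overlap in TMM CPM, at 24.6 to 33.3 in Bama pig and 35.7 to 65.3 in wild boar. All 4 wild boar libraries lay above all 3 Bama pig libraries in 5% of all genes tested, and the opposite order, which no member showed, held in 5.87%. Which gene parted the breeds depended on the scale. In TPM, INSIG1 overlapped, and SQLE was the only one of the 8 without overlap, all 3 Bama pig libraries being above all 4 wild boar libraries, as in 11.8% of all genes tested (1.06% had the opposite order). By depot, no member was without overlap in either direction. All 4 GOM libraries lay above all 3 ULB libraries in 7.94% of genes in TMM CPM and in 8.28% in TPM, and below them in 5.4% and in 2.68%. Between the breeds, TPM shifted the median log2 fold change of all genes by -0.19 on the log2(TPM + 1) scale. Relative to the median of all genes, the breed differences on that scale were -0.97 for SQLE, 0.91 for LSS and 0.79 for INSIG1, with the signs of the count test.

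The remaining 5 genes had an unadjusted p of at least 0.147 between the breeds. The log2 fold change was 0.84 for IDI1 (SE 0.53), -0.62 for DHCR7 (SE 0.52), -0.36 for SREBF2 (SE 0.33), -0.25 for FDFT1 (SE 0.30) and -0.08 for HMGCS1 (SE 0.32). Each of these 5 changed sign when 1 library was left out. DHCR7 went to 0.15 without Bama pig GOM replicate 1, and IDI1 to -0.13 without wild boar GOM replicate 2. The median over the 8 genes was -0.17, beside -0.04 over all genes tested.

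**Figure D2:**
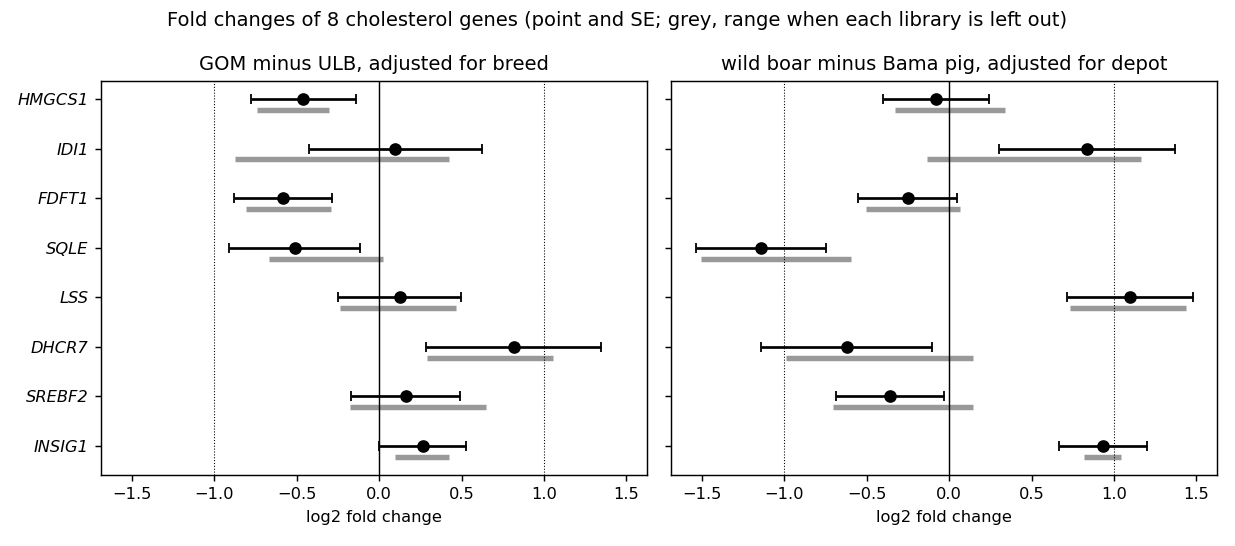
Log2 fold change (horizontal axis) of the 8 genes between depots (left) and breeds (right) from edgeR's fit on 7 libraries, with the SE as whiskers, the range when each library was left out in grey, and dotted lines at -1 and 1. SQLE (-1.14), LSS (1.10) and INSIG1 (0.94) keep their side of 0 in the breed comparison, and HMGCS1, FDFT1, DHCR7 and INSIG1 keep theirs in the depot comparison.

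Comparisons within a single depot or breed rest on subsets of the same libraries. In the GOM alone, 2 wild boar libraries were compared with 2 Bama pig libraries, and none of the 8 genes was called where 0.0241% of 16615 genes were. INSIG1 had the smallest unadjusted p (0.0306, where 8% of all genes were below 0.05), with a log2 fold change of 0.99 (SE 0.38, adjusted p = 0.616 from edgeR's test). The values were 0.84 for LSS, 1.13 for IDI1, -0.60 for SQLE, -0.73 for DHCR7, -0.19 for HMGCS1, 0.15 for SREBF2 and 0.06 for FDFT1. In wild boars alone, 2 GOM libraries were compared with 2 ULB libraries, and again none of the 8 was called where 1.97% of 16183 genes were, nor was any at an unadjusted p below 0.05, where 21% were. Here HMGCS1 was at -0.60 (SE 0.27, adjusted p = 0.255 from edgeR's test), SREBF2 at 0.64 (SE 0.33, adjusted p = 0.313) and SQLE at 0.01 (SE 0.40). DESeq2 called 0 of the 8 in both subsets.

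A difference of the depot effect between the breeds was tested directly, with the single Bama pig ULB library assumed to vary like the other groups. No gene of 17877 passed in edgeR (0% called, 4.86% at an unadjusted p below 0.05, and 52 genes with DESeq2), and none of the 8 had an unadjusted p below 0.05. The largest differences were 1.33 for SQLE (SE 0.73, adjusted p = 0.970 from edgeR's test) and 1.25 for SREBF2 (SE 0.58, adjusted p = 0.970). In Bama pig the ULB library was above the GOM mean in TPM for both genes. In wild boar, SREBF2 was above both ULB libraries in GOM replicate 1 and below them in GOM replicate 2.

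The 8 genes did not vary across libraries as 1 group. Pearson's r of log2(TPM + 1) across the 7 libraries is given as a description, since libraries share animals. Over the 28 pairs its median was -0.084, with 12 pairs (42.9%) above 0, while over all pairs of the genes tested the median was 0.183 and 62.9% were above 0. An r above 0.7 was found in 3 of the 28 pairs, and in 11.7% of all pairs of genes tested.

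Pairs differed in sign and size. FDFT1 and SQLE, which act in sequence on squalene, had an r of 0.824 (Spearman's rho 0.75), and 0.755 in log2 CPM after TMM. Without the 2 libraries farthest from the median of FDFT1 the r was 0.037, so over the 7 libraries this relation rests on those libraries. Once group means were removed, which leaves out Bama pig ULB, the r was 0.736. LSS went with INSIG1 (r = 0.77, rho = 0.75, and 0.904 without the 2 libraries farthest from the median of LSS) and with IDI1 (r = 0.746, rho = 0.821, and 0.702 without the 2 farthest for IDI1). SQLE and INSIG1 had a negative r (-0.751, rho = -0.786, and -0.916 without the 2 farthest), which was 0.4 once group means were removed. SREBF2, the gene of the activator, was inverse to LSS (r = -0.893, rho = -0.786, and -0.955 without the 2 farthest) and to IDI1 (r = -0.808, rho = -0.786, and -0.803 without the 2 farthest). DHCR7 had its highest r with SREBF2 (0.547), which turned to -0.587 without the 2 farthest libraries.

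**Figure D3:**
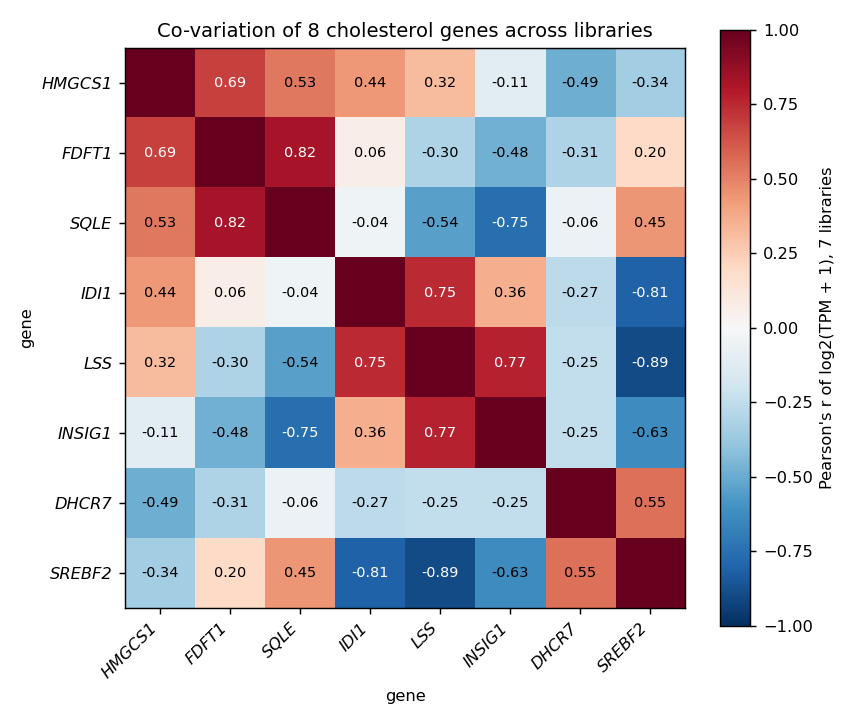
Pearson's r of log2(TPM + 1) over 7 libraries for each pair of the 8 genes (both axes list genes, and colour runs from -1 to 1). HMGCS1, FDFT1 and SQLE, and also IDI1, LSS and INSIG1, have an r above 0 with each other, and SREBF2 has its most negative r with LSS (-0.893) and IDI1 (-0.808).

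Group means were then removed, which leaves the differences between replicates in the 3 groups with 2 libraries. The median r over the 28 pairs was 0.295 and 16 pairs (57.1%) were above 0, beside a median of 0.096 and 54.4% over all pairs of genes tested. The 12 pairs below 0 all contained DHCR7 or SREBF2. In Bama pig GOM, replicate 2 was higher than replicate 1 for HMGCS1, IDI1, FDFT1, SQLE, LSS and INSIG1, and lower for DHCR7 and SREBF2. In wild boar GOM, replicate 2 was higher for HMGCS1, IDI1, LSS, DHCR7 and INSIG1, and lower for FDFT1, SQLE and SREBF2. In wild boar ULB, replicate 2 was higher for HMGCS1 and SQLE, and lower for the other 6, DHCR7 and SREBF2 included. With 6 libraries in 3 pairs, these values describe only the replicates at hand.

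The mean of the 8 standardized profiles was highest in Bama pig GOM replicate 2 (0.549) and lowest in wild boar GOM replicate 1 (-0.552). Among genes with a symbol and a mean of at least 5 TPM, the 10 most like this mean by Pearson's r over 7 libraries included MSMO1 (0.941), RNLS (0.919), ACBD6 (0.918), RAD18 (0.908), QDPR (0.905), DCTN6 (0.905), BDH2 (0.883), IDH1 (0.882) and DLD (0.881). MSMO1 is the sterol C4 demethylase, an enzyme of the same route that was not among the 8. CYP51A1, lanosterol demethylase, had an r of 0.764. An r above 0.7 was reached by 2 of 14 other synthesis enzymes (14.3%) and by 2.3% of all genes tested. Of the 8 genes, HMGCS1 was most like the mean of the other 7 (r = 0.529), and SREBF2 least (r = -0.5). Bama pig GOM replicate 2, where the mean profile was highest, also had the highest sum of liver transcripts (1338 TPM, against 505.7 TPM in its replicate). A link between the profile and these transcripts was not tested.

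The other genes of the pathway were taken from lists, and 14 of 15 further synthesis enzymes were in the table. None was called between depots or breeds. The mevalonate steps spanned 14.9 to 59.2 TPM for ACAT2, 2.62 to 4.87 TPM for MVK, 4.08 to 8.74 TPM for MVD and 13.8 to 64.4 TPM for FDPS (farnesyl diphosphate synthase). The steps from lanosterol spanned 24.3 to 52.9 TPM for CYP51A1, 0.4995 to 3.19 TPM for TM7SF2, 13.7 to 23.1 TPM for LBR, 12.2 to 39.6 TPM for MSMO1, 3.53 to 8.19 TPM for NSDHL and 11.8 to 19.2 TPM for HSD17B7. The last steps spanned 15.9 to 68.5 TPM for EBP and 10.6 to 41.8 TPM for SC5D. FDPS and EBP had their lowest value in Bama pig GOM replicate 1 and their highest in wild boar GOM replicate 2, the library with the highest IDI1. The median log2 fold change of the 14 was 0.20 between depots and 0.28 between breeds, beside 0.02 and -0.04 over all genes tested. Between breeds 11 of the 14 values were above 0, as were 8504 of all 17877 genes. In edgeR's test between breeds, 3 of the 14 had an unadjusted p below 0.05, where 21.6% of all genes did.

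Uptake and transport genes (9 of 10 in the table) were not called either. They spanned 30.4 to 136 TPM for VLDLR, 9.75 to 84.3 TPM for SCARB1 (a receptor for high-density lipoprotein) and 83.9 to 257 TPM for LIPA (lysosomal acid lipase). The range was 9.34 to 18.65 TPM for NPC1, 134 to 288 TPM for NPC2, 1.19 to 4.45 TPM for STARD4 and 2.37 to 7.94 TPM for STARD3. STARD4, a carrier of sterol between membranes and a known SREBP target, had 3.54 to 4.45 TPM in the 3 Bama pig libraries and 1.19 to 1.39 TPM in the 4 wild boar libraries. All 3 Bama pig libraries were above all 4 wild boar libraries in TPM (11.8% of genes tested) and in TMM CPM (5.87%), and its log2 fold change was -1.33 (SE 0.39, adjusted p = 0.127 from edgeR's test). Across libraries it varied with SQLE (r = 0.891, rho = 0.964). NPC2, which moves cholesterol out of lysosomes, was in the opposite order, 134 to 248 TPM in Bama pig and 264 to 288 TPM in wild boar, an order seen in 1.06% of genes tested in TPM and in 5% in TMM CPM (log2 fold change 1.01, SE 0.29, adjusted p = 0.125 from edgeR's test).

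The regulators of SREBP processing (6 of 7 in the table) included no called gene. The lowest mean among them was that of SCAP (10.77 to 17.6 TPM). INSIG2, the paralog of INSIG1, was higher in all 3 ULB libraries than in all 4 GOM libraries in TMM CPM (5.4% of genes tested), as was SREBF1, which encodes SREBP1, while in TPM the depots overlapped for both. Genes of the liver X receptors and of cholesterol efflux (8 of 8) held none called. MYLIP, a ubiquitin ligase induced by these receptors, came nearest, with a log2 fold change of 1.18 in wild boar against Bama pig (SE 0.26, adjusted p = 0.0755 from edgeR's test). The highest mean in that list was that of MYLIP (41.9 to 118 TPM) and the lowest that of CH25H (0.677 to 2.69 TPM).

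Lipogenic targets of SREBP1 were abundant transcripts of these tissues, GPAM excepted. SCD had the highest mean of the 7 (590 to 8312 TPM) and GPAM the lowest (4.42 to 13.15 TPM), and none was called. Their median log2 fold change was 0.75 between depots and 1.07 between breeds, beside 0.02 and -0.04 over all genes tested. Between depots 4 values were above 0 and 3 below, and between breeds 6 were above and 1 below. SCD had a lower mean in GOM than in ULB, at 2220 against 6523 TPM in wild boar and 661 against 1274 TPM in Bama pig. FASN, fatty acid synthase, was higher in all 4 GOM libraries than in all 3 ULB libraries in TMM CPM (7.94% of genes tested), with a log2 fold change of 1.91 (SE 0.51, adjusted p = 0.0702 from edgeR's test). Across libraries LSS varied with ELOVL6, a fatty acid elongase (r = 0.891, rho = 0.964), and SQLE was inverse to it (r = -0.676, rho = -0.571). Among the synthesis, uptake, regulator and lipogenic list genes, these were the highest r of LSS and the lowest of SQLE. GPAM went the other way, with an r of 0.614 (rho = 0.893) to SQLE and -0.396 (rho = -0.5) to LSS. Of all pairs of genes tested, 11.7% had an r above 0.7.

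Positions on autosomes of Sscrofa11.1 were found through RefSeq for 6 of the members. They were DHCR7 (chr2:2377352-2391846), FDFT1 (chr14:14976259-15010701), HMGCS1 (chr16:27936225-27957261), INSIG1 (chr18:2885494-2898758), SQLE (chr4:14669789-14700152) and SREBF2 (chr5:6719484-6784724). LSS lies on an unplaced scaffold. The A/B compartment state of their start sites was read from the deposited Hi-C score of 20-kb bins. The deposit names it an A-B index, and it was taken here as PC1, the first principal component of the contact matrix, which was assumed and not settled by the sources. A positive score was taken to mark the open, gene-rich compartment A. All 6 start sites had a positive score in all 7 Hi-C libraries, as did 80.15% of 12167 tested genes on autosomes. No member switched between breeds. Few genes did, 200 of the 12167 in GOM and 271 in ULB, so its absence among 6 says little about them. These counts cannot be compared between depots, since Bama pig ULB had fewer Hi-C libraries here than Bama pig GOM. The paper, which had a further Bama pig ULB library, reported more switching in the GOM than in the ULB.

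The score has its own scale on each chromosome, so sizes are compared within a gene. SQLE had a score of 34.1 and 31.0 in Bama pig GOM, 33.2 in Bama pig ULB, 24.1 and 28.4 in wild boar GOM, and 15.4 and 18.5 in wild boar ULB. All 3 Bama pig libraries exceeded all 4 wild boar libraries, an order seen at 2.8% of the 12167 start sites, and SQLE was the only one of the 6 members with it. The opposite order, at 7.64% of start sites, was found in no member. The order was the same with the mean over 5 bins (3.72% of start sites) and with the score centred on the median of the chromosome. This is the order of SQLE in TPM too, but not in TMM CPM, where the breeds overlapped. Within wild boar, both ULB libraries had a lower score and a higher SQLE level in TPM than both GOM libraries. No test links the scores to expression. INSIG1 had 12.1 to 16.7 in Bama pig and 15.2 to 18.5 in wild boar, which overlapped, while its mean over 5 bins was 12.72 to 13.14 in Bama pig and 13.80 to 15.2 in wild boar, without overlap, an order seen at 6.02% of start sites on that mean.

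**Figure D4:**
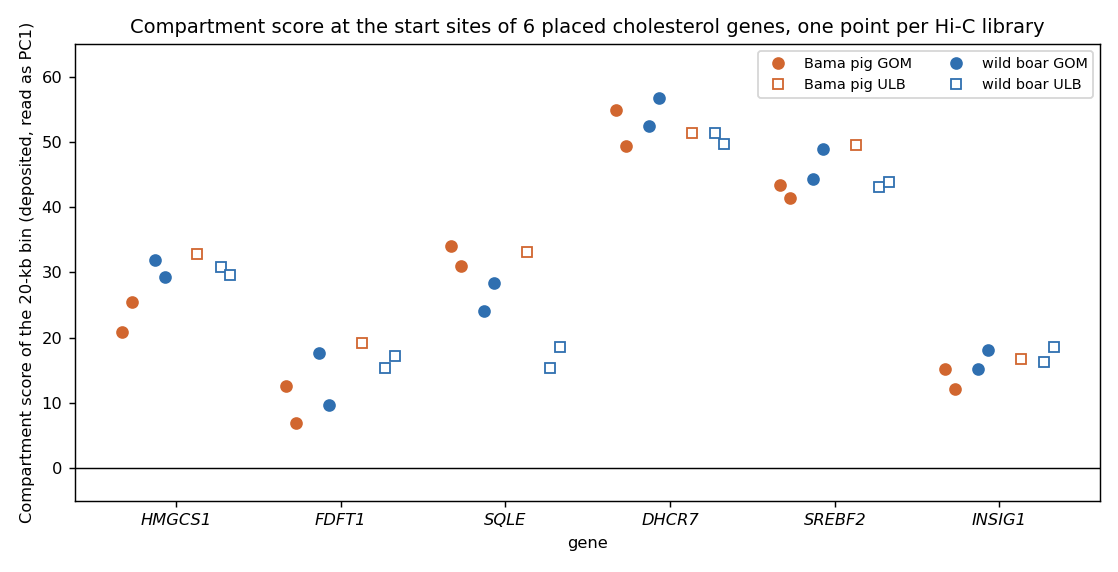
Compartment score of the 20-kb bin at the start site (vertical axis, deposited value, read as PC1) of the 6 placed genes (horizontal axis) in the 7 Hi-C libraries, orange for Bama pig and blue for wild boar, filled circles for GOM and open squares for ULB. Every point is above 0, and SQLE has 31.0 to 34.1 in Bama pig against 15.4 to 28.4 in wild boar.

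Topologically associating domains (TADs) were listed once per breed and depot, on merged replicates. The start sites of FDFT1, HMGCS1, INSIG1, SQLE and SREBF2 lay inside a TAD in all 4 lists, and that of DHCR7 in none, 22.65 kb from the nearest TAD edge. The TAD of SQLE spanned 400 to 440 kb, and its nearer edge lay 0.152 kb from the start site in both ULB lists and 20.15 kb in both GOM lists. That is 1 bin of 20 kb, the step of these lists. The TAD of FDFT1 spanned 680 kb in 3 lists and 700 kb in Bama pig ULB, while that of INSIG1 spanned 320 to 640 kb, that of HMGCS1 320 to 620 kb and that of SREBF2 220 or 240 kb.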

How the data were processed

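RNA-seq and Hi-C values of 7 libraries each were used, with breed, depot and replicate from the labels. Bama pig ULB replicate 1 was not among the libraries analysed here. The study merged the replicates of each pair to list TADs, so the Bama pig ULB list may include it. RNA was depleted of ribosomal RNA and libraries were strand-specific. Quantification of protein-coding genes by the authors used Kallisto (0.43.0 in the submitters' processing notes) with Sscrofa11.1 and Ensembl genes, and they deposited estimated counts and TPM, neither normalized between libraries. TPM over the listed genes summed to between 774260.2 and 956616.1, since transcripts outside the list took a share. The authors deposited a compartment score per 20-kb bin, from contact matrices they had normalized, and TAD positions from merged replicates. The score is named an A-B index in the deposit. It has a mean of 0 on each chromosome and was read here as PC1 of the contact matrix, but the sources also define an index as the difference of contacts with compartments A and B, so which of them was deposited is not settled. Contact counts behind these files were not used here, so no interval is given for them.

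The 8 genes and all lists were chosen with earlier results of these data known. The genes named are the 8, list genes that pass a test, the highest and lowest of each list, each further synthesis and uptake gene with its range, and the 10 genes most like the mean profile, apart from some that are not reported here. Other list genes named (INSIG2, SREBF1, MYLIP, FASN and ELOVL6) were chosen after their values were seen. Estimated counts were rounded and tested with edgeR 4.0.16 in R 4.3.3 (TMM), keeping genes that exceeded 0.1 TPM in every library of 1 or more breed and depot groups. Two-sided p-values were computed against the spread between these libraries. The main fits took libraries as independent although the depots share animals. The p-values and SEs between breeds therefore do not measure the spread between animals. Log2 fold changes are those of the fit, and TPM was compared as log2(TPM + 1) with limma 3.58.1 as an alternative. DESeq2 1.42.0, other normalizations, gene filters, a replicate block, an offset for GC content (chosen after seeing the data, with a GC value for 71.3% of the genes tested, under the 80% needed, so it is void as a check over all genes) and leaving out each library were also run. Positions, promoters and GC content came from RefSeq on the same build, by symbol, for 7 of the 8 genes. Other values were computed in Python 3.11.15 with numpy 2.4.6 and pandas 2.3.3, and correlations with scipy 1.17.1. Plots were drawn with matplotlib 3.10.9. On simulated counts with 200 of 17877 genes changed, edgeR recovered 78% of log2 changes of 2 and 93% of changes of 3 between depots, with 8.56% of calls false. Between breeds it recovered 75% and 93%, with 8.7% false. The changed genes were drawn only from those above a minimum expression level, and libraries were simulated as independent, without shared animals. These shares therefore do not hold for weakly expressed genes or for the design with shared animals. A smaller change, like those of the 8 genes, was not simulated.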

Additional observations from a re-analysis of the deposited data

How the results depend on the processing

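None of the 8 genes was called in any comparison under any alternative that was run. The number of genes called moved more. For the depots it was 640, and 1399 with DESeq2, 999 without the TPM filter, 329 with limma on log2(TPM + 1), and 230 to 656 when a library was left out. For the breeds it was 75, and 1157 with DESeq2, 503 without the filter, 35 and 137 with limma on log2(TPM + 1) and log2(TPM + 0.1), 16 of 12747 genes tested with the GC offset, and 1 to 1805 when a library was left out, with 1 without Bama pig ULB replicate 2 and 1805 without Bama pig GOM replicate 2. For the breeds in the GOM it was 4, and 167 with DESeq2, 26 without the filter, 0 and 2 with limma, 0 of 12241 with the GC offset, and 0 to 123 when a library was left out. For the depots in wild boars it was 318, and 1318 with DESeq2, 608 without the filter, 179 of 12079 with the GC offset, and 44 to 227 when a library was left out. For the difference of depot effects it was 0, and 52 with DESeq2, 7 without the filter, 293 and 237 with limma, and 0 to 1 when a library was left out. It could not be fitted without Bama pig ULB replicate 2. The GC offset was fitted only on genes with a GC value, so its counts come from fewer genes. The cause of the other shifts was not tested.

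Among single genes, the depot difference changed sign for IDI1 with upper-quartile normalization (-0.00921) and with limma (-0.181 and -0.19), and for LSS (-0.259) and SREBF2 (-0.212) with the GC offset. When a library was left out it lay between -0.876 and 0.424 for IDI1 (also -0.0691 and -0.119), between -0.668 and 0.0216 for SQLE, between -0.238 and 0.466 for LSS (also -0.044 and -0.153), and between -0.178 and 0.646 for SREBF2 (also -0.0312). The breed difference then lay between -0.326 and 0.341 for HMGCS1 (also 0.0561), between -0.133 and 1.16 for IDI1, between -0.507 and 0.063 for FDFT1, between -0.992 and 0.146 for DHCR7 and between -0.702 and 0.146 for SREBF2. The median r of the member pairs was 0.042 in log2 CPM after TMM, 0.295 after removing group means, and -0.201 to 0.043 when a library was left out. All 6 start sites stayed positive in the compartment score under every alternative.

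Replicate numbers are shared by the groups, but the sources do not say that a number marks an animal. Deviations of same-numbered libraries correlated at 0.154 between the wild boar depots and at 0.15 between the breeds in the GOM. With a replicate block 793 genes were called between depots, 1623 between depots in wild boars and 15 between breeds in the GOM.

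Upper-quartile normalization and TPM shifted the median log2 fold change of all genes between the breeds by -0.139 and -0.188, and the share of calls that were higher in wild boar was 17.8% and 14.3%. In wild boars, limma on log2(TPM + 1) placed 112 of 307 depot calls higher in GOM, against 197 of 318. With 2 libraries or fewer per group, the SE of the 8 log2 fold changes was 0.26 to 0.53, and how often changes of the size seen would be called was not tested.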
